A study of Mus musculus with 12 samples.

Results

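Cell cycle genes are described here in mouse embryonic stem (ES) cells: 42 genes chosen by name from the known machinery of division, from the cyclins and kinases of G1 to the kinases and checkpoint proteins of mitosis. All 42 were on the array, as 42 of 27677 named genes, and all 42 were among the 21207 genes tested. They were read by 68 probes, 23 genes by 1 probe each, and the probe that stood for each gene was well above background on all 12 arrays. Choosing them by name used no measured value, though earlier results of these data were known when they were chosen.

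RNA was measured on 12 one-colour arrays, 1 for each combination of line, arm and day. The lines were Dazl-GFP and Stella-GFP, reporter lines named after germ cell genes, and each comparison therefore rests on 1 array of each line per group. The serum-free arm, labelled 2i condition, was grown in B27N2 medium and sampled at days 0, 3 and 10, and the FBS arm was grown in DMEM with 15% fetal bovine serum and sampled at the same days. Both arms had leukemia inhibitory factor (LIF) and γ-irradiated mouse embryonic fibroblasts as feeder cells. Inhibitors are named for the 2i experiments: 1 µM PD0325901, which blocks MEK, and 5 µM Kenpaullone, which blocks GSK3β. Nothing in the labels says if FBS cultures were given these too, or what the serum-free cells had been given by day 0. Kenpaullone is known as an inhibitor of cyclin-dependent kinases as well as of GSK3β.

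A level here is the log2 of a probe's signal minus the log2 of its array's 75th percentile, so that 0 is that percentile, and a change is a difference of such levels fitted by limma with its standard error (SE). Where a group has a pair of levels, they are those of its Dazl-GFP and its Stella-GFP array. Adjusted p-values are limma's, by Benjamini and Hochberg over all 21207 genes, with 0.05 as the threshold, and they measure only the spread between these samples. Between 64.02% and 74.44% of an array's spots were well above background, and precision is limited by there being 1 array per line and group. Where groups are said not to overlap, that describes the printed levels. It adds no support beyond the test, and the share of all genes without overlap was not counted. The arrays lay on 3 slides, and only day 3 had both arms on the same slide. In bulk RNA, fewer cells of a type and less RNA per cell cannot be told apart.

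The cell cycle is driven by cyclins, which bind and activate cyclin-dependent kinases (CDKs). In most cells D-type cyclins with Cdk4 or Cdk6, and then E-type cyclins with Cdk2, phosphorylate the pocket protein Rb1 and its relatives Rbl1 and Rbl2, which frees E2F factors to switch on the genes of DNA replication, while CDK inhibitors hold these kinases back. Mouse ES cells are known for a short G1 phase, with pocket proteins held phosphorylated and cyclin E-Cdk2 active through most of the cycle. FBS supplies mitogens whose signal runs through MEK and ERK to the gene of cyclin D1, and GSK3β is known to phosphorylate D-type cyclins for degradation.

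The members differed in how far their levels moved over the 12 arrays. The range from lowest to highest array was 0.93 at the median member, against a median of 1.25 over the 16787 genes well above background on every array. It was under 1 for 25 of the 42 members (59.5%), against 32.3% of those 16787 genes. Those genes were not matched to the members in level, and each range is that of the gene's brightest probe. The part of brightness in the narrow ranges was not tested. The 9 genes of origin licensing and replication were all under 1, with ranges of 0.46 to 0.81. So were 8 of the 9 genes of S phase to mitotic entry, all but the kinase gene Wee1. The D-type cyclins and their kinases spread over 0.70 to 3.97 (median 2.21), and cyclin E genes with Cdk2 over 1.11 to 2.51. Ccnd2, which encodes cyclin D2, had the widest range of all members, 3.97, and the next were Cdk6 with 2.55, Ccne1 with 2.51 and Ccnd1 with 2.21.

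**Figure D1:**
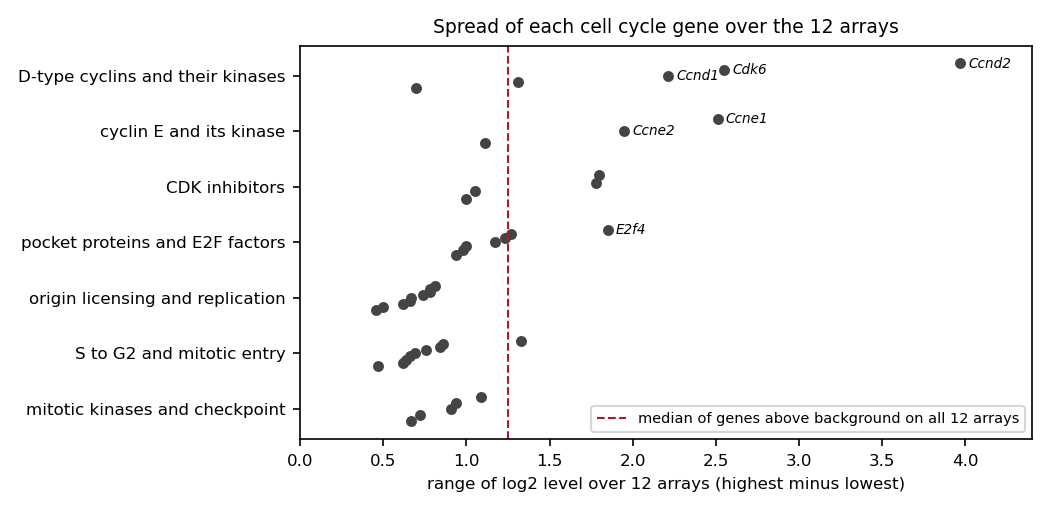
Range of the log2 level over the 12 arrays (x axis, highest minus lowest array) for each of the 42 genes, 1 point per gene, in rows by role, with genes over 1.8 named and the dashed line at the median of genes above background on all 12 arrays, 1.25. The replication genes lie between 0.46 and 0.81, and Ccnd2 lies at 3.97.

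At least 1 of the 11 comparisons called 15 of the 42 members (35.7%, against 40.4% of all genes), and 27 passed in none. Calls were most frequent at day 3. In the serum-free arm at day 3, against the FBS arm at day 3, 2 members were higher (8.96% of all genes were) and 8 lower (13.5% of all genes were). Together that is 23.8% of the members, against 22.5% of all tested genes, so the share of members called was near the background and is no result about cell cycle genes as a group. Their median change was -0.19, against -0.21 over all genes. Within the serum-free arm, at day 3 against day 0, 1 member rose (5.93% of all genes did) and 8 fell (7.89% of all genes did). Together that is 21.4% of the members against 13.8% of all genes, with a median of -0.38 against -0.04. Both comparisons share the serum-free day 3 arrays and are not independent.

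**Figure D2:**
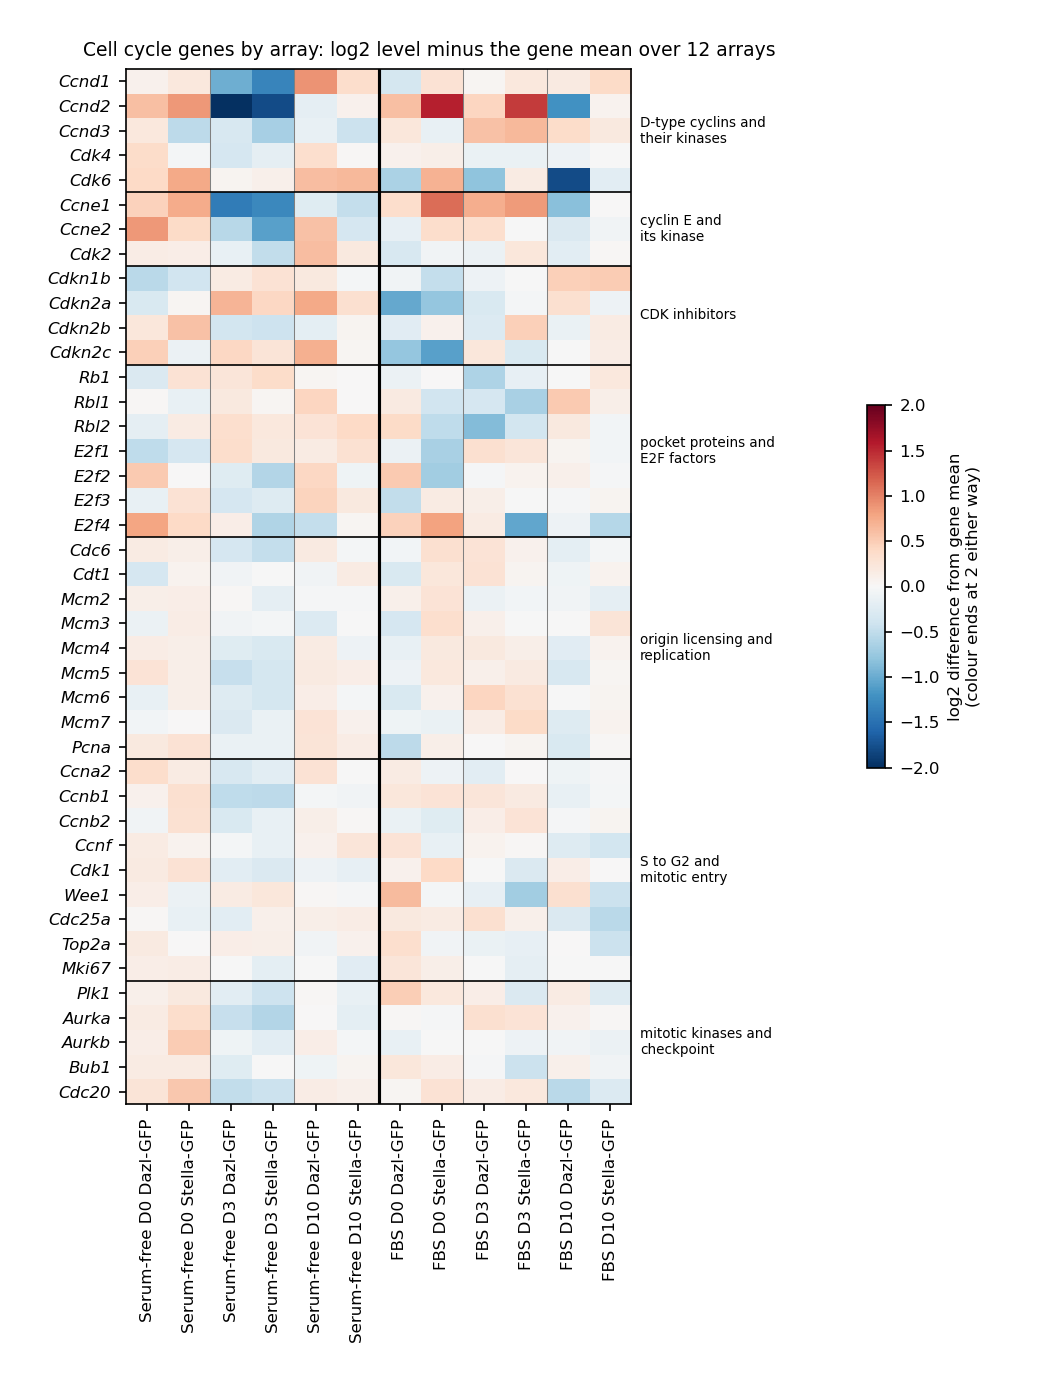
Level of each of the 42 genes (rows, by role) on each of the 12 arrays (columns, serum-free arm left of the FBS arm, days 0, 3 and 10), as the log2 difference from the gene's mean over all arrays, red above and blue below, with colours ending at 2 either way. The serum-free day 3 columns are lowest for Ccnd1, Ccnd2, Ccne1 and Ccne2, while the Mcm rows stay pale.

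Beside these day 3 comparisons, markers of other cells moved too. The summed level of 19 fibroblast (feeder) markers, with the array's 75th percentile as 1, was 14 to 20.8 in the serum-free arm at day 3, against 66.6 to 124 in the FBS arm at day 3 and 42.5 to 49.7 in the serum-free arm at day 0. Of these markers 15 of 19 were lower against the FBS arm (median change -2.01) and 10 of 19 fell against day 0 (median -1.48), and all 19 were well above background on every array. The summed level of 11 macrophage markers was 1.95 to 2.87 at serum-free day 3, against 5.91 to 9.52 at FBS day 3 and 3.41 to 3.82 at serum-free day 0, with 6 lower and 1 higher against the FBS arm. Mrc1 and Tyrobp among them were not well above background on 5 and 3 of the 12 arrays. The 13 primitive endoderm markers summed to 12.5 to 27.4 at serum-free day 3, against 4.57 to 5.18 at FBS day 3 and 14.1 to 22.4 at serum-free day 0, and 8 were higher than in the FBS arm. The 12 ES cell markers, which check the labelled cell type, summed to 873 to 952 at serum-free day 3, against 845 to 962 at FBS day 3 and 584 to 723 at serum-free day 0, and all 12 were well above background on every array. The part of these markers in the day 3 results was not tested.

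The D-type cyclins respond to growth factors and start the G1 program, and they were lower at day 3 in the serum-free arm. Ccnd2 had levels of -1.29 in Dazl-GFP and -0.66 in Stella-GFP cells of the serum-free arm at day 3, against 1.56 and 2.53 in the FBS arm at day 3. At day 0 the serum-free levels were 1.74 and 2, and at day 10 they were 0.96 and 1.22. The day 3 serum-free arrays therefore lay below every other array, in both lines. The change was -3.02 (SE 0.27, adjusted p = 0.00173) against the FBS arm, which is 0.123 times its level, and -2.84 (SE 0.27, adjusted p = 0.00284) against day 0. Its other probes moved alike, by -2.73 and -2.79 against the FBS arm and by -2.55 and -2.62 against day 0. The 2 arms also differed in how far Ccnd2 moved from day 0 to day 3: the change in the serum-free arm minus that in the FBS arm was -2.68 (SE 0.39, adjusted p = 0.0348). This was the only 1 of the 42 members called for that difference (2.38%, against 1.57% of all genes, 1.14% in this direction), and 16 had an unadjusted p under 0.05. No member was called for it without the FBS day 0 Dazl-GFP array or any 1 of the day 3 arrays or serum-free day 0 arrays, and 4 were without the FBS day 0 Stella-GFP array.

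Ccnd1, the gene of cyclin D1, had 0.91 in Dazl-GFP and 0.57 in Stella-GFP cells of the serum-free arm at day 3, against 1.93 and 2.09 in the FBS arm at day 3 and 1.98 and 2.10 in the serum-free arm at day 0. The groups did not overlap. Its change was -1.27 (SE 0.28, adjusted p = 0.0202) against the FBS arm, and it fell by 1.30 (SE 0.28, adjusted p = 0.0263) from day 0. At day 10 the serum-free arrays stood at 2.78 and 2.24, with 2.06 and 2.27 in the FBS arm, and the arm difference at day 10 did not pass. Ccnd3, the gene of cyclin D3, read 2.92 and 2.58 in the serum-free arm at day 3, against 3.83 and 3.89 in the FBS arm, a change of -1.11 (SE 0.20, adjusted p = 0.0109). Its change from day 0 within the serum-free arm, -0.33 (SE 0.20, adjusted p = 0.314), did not pass.

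Of the partner kinases, Cdk4 passed in no comparison and stayed between 3.59 and 4.29 over all arrays. Cdk6 read 1.26 and 1.31 in the serum-free arm at day 3, against 0.41 and 1.37 in the FBS arm, where the groups overlapped, and its change of 0.40 (SE 0.41, adjusted p = 0.483) did not pass. At day 10 it read 1.82 and 1.85 in the serum-free arm against -0.58 and 0.99 in the FBS arm, a change of 1.63 (SE 0.41, adjusted p = 0.0637) that also missed the threshold. Its 3 probes differed. At day 3 the second probe read -0.64 and -0.88 in the serum-free arm, against -0.47 and -0.15 in the FBS arm. The third, dimmer probe read -4.96 and -5.16, against -3.44 and -3.91. Both lay lower in the serum-free arm there, unlike the fitted change of the standing probe. In the FBS arm at day 10 against day 0 the standing probe changed by -1.03 (SE 0.41, adjusted p = 0.145), and the second probe by -1.91 (SE 0.32, adjusted p = 0.0106).

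Cyclin E with Cdk2 acts after the D-type cyclins at entry into S phase. Ccne1, the gene of cyclin E1, had 4.27 in Dazl-GFP and 4.37 in Stella-GFP cells of the serum-free arm at day 3, against 6.39 and 6.51 in the FBS arm at day 3 and 6.12 and 6.41 in the serum-free arm at day 0. The day 3 serum-free arrays were the lowest of all 12. The change was -2.13 (SE 0.28, adjusted p = 0.00435) against the FBS arm, 0.228 times its level, and -1.94 (SE 0.28, adjusted p = 0.00756) against day 0, and a second Ccne1 probe changed by -2.29 and -1.65. The test of the difference between arms in the day 3 response gave -1.99 (SE 0.39, adjusted p = 0.0561) for the standing probe and -1.86 (SE 0.27, adjusted p = 0.0355) for the second. Ccne2, the gene of cyclin E2, read -0.66 and -1.19 at day 3 in the serum-free arm, against 0.76 and 0.28 at day 0, and fell by 1.44 (SE 0.33, adjusted p = 0.0316). Against the FBS arm at day 3, which read 0.23 and -0.12, its change was -0.97 (SE 0.33, adjusted p = 0.0728). Cdk2 passed in no comparison and ranged from -2.05 to -0.94.

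**Figure D3:**
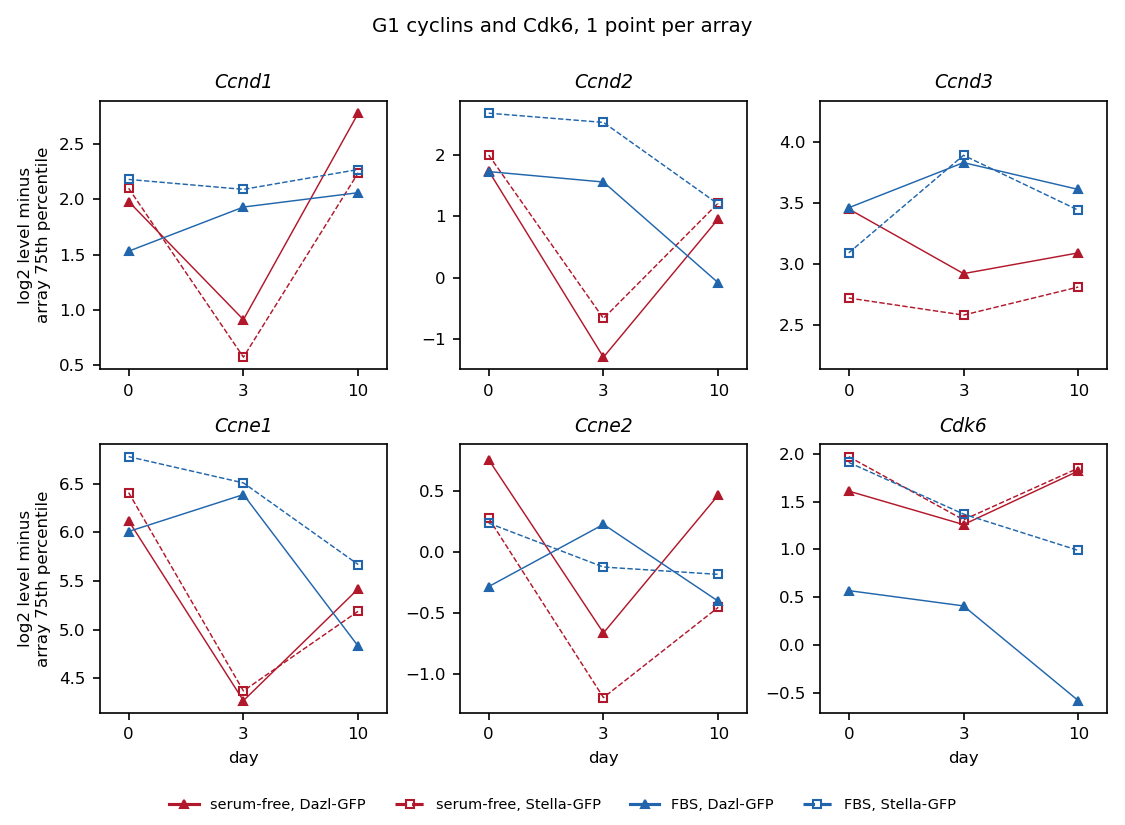
Levels of Ccnd1, Ccnd2, Ccnd3, Ccne1, Ccne2 and Cdk6 (y axes, log2 level minus the array's 75th percentile, each panel with its own scale) at days 0, 3 and 10, 1 point per array, red for the serum-free and blue for the FBS arm, triangles for Dazl-GFP and squares for Stella-GFP. The red day 3 points of Ccnd2 (-1.29 and -0.66) and Ccne1 (4.27 and 4.37) lie below all other points, and those of Ccnd3 (2.92 and 2.58) below both blue day 3 points (3.83 and 3.89).

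Of 5 D-type cyclin and kinase genes, 3 were lower than in the FBS arm at day 3 and 2 did not pass, and of the 3 cyclin E and Cdk2 genes 1 was lower and 2 did not pass, where 13.5% of all genes were lower. Within the serum-free arm from day 0 to day 3, 2 of 5 and 2 of 3 fell, where 7.89% of all genes did. Against the FBS arm at day 3, Ccnd2 and Ccne1 passed in all 12 fits that left out 1 array. The count of members called there was 2 without the serum-free Dazl-GFP array, 2 without the serum-free Stella-GFP array, 3 without the FBS Dazl-GFP array and 2 without the FBS Stella-GFP array, where the lone array left is assumed to vary like the other groups. With the slide as a block Ccnd2 alone kept its call there (-3.19, adjusted p = 0.0265), while Ccne1 had -2.19 (adjusted p = 0.0526), Ccnd3 -1.14 (adjusted p = 0.0595) and Ccnd1 -1.24 (adjusted p = 0.145). Slide 2 held day 3 arrays of both arms, though of different lines. There the serum-free Dazl-GFP array minus the FBS Stella-GFP array was -3.82 for Ccnd2, -2.23 for Ccne1, -1.17 for Ccnd1 and -0.97 for Ccnd3, with -0.21 as the median of all genes.

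Day 0 and day 3 of the serum-free arm lay on 1 slide for each line, so that the slide does not differ between the days compared. The change of Ccnd2 was -3.03 on slide 2 (Dazl-GFP) and -2.65 on slide 3 (Stella-GFP), that of Ccne1 -1.84 and -2.04, and that of Ccnd1 -1.07 and -1.53. With the slide as a block 7 members were called in this comparison, against 9 without it, and those that missed the threshold with it were Ccne2 (-1.44, adjusted p = 0.0549) and Cdkn2b (-0.79, adjusted p = 0.0533). Leaving out any of its 4 arrays took the count to 1 or 2: 1 without the day 3 Stella-GFP or the day 0 Dazl-GFP array, and 2 without the day 0 Stella-GFP or the day 3 Dazl-GFP array. Over the 12 fits that left out 1 array, Ccnd2 passed here in 12 and Ccne1 in 10.

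CDK inhibitors of the Cip/Kip family (Cdkn1a, Cdkn1b and Cdkn1c, encoding p21, p27 and p57) act mostly on cyclin E-Cdk2, and those of the INK4 family on Cdk4 and Cdk6. Cdkn2a encodes p16 and, in another frame, Arf; Cdkn2b encodes p15 and Cdkn2c p18. In the FBS arm 3 of the 4 member inhibitors rose by day 10 against day 0. In that comparison 3 members in all were higher and 2 lower, 11.9% against 13% of all genes (7.66% higher and 5.34% lower), a share near the background. The 12 ES cell markers summed to 919 to 967 at FBS day 10, against 627 to 639 at day 0, with 6 higher and 2 lower. The primitive endoderm markers summed to 5.2 to 5.59 at FBS day 10, against 13.2 to 14 at day 0, with 2 of 13 lower, and the macrophage markers to 2.68 to 3.16, against 3.08 to 9.01 at day 0, with 1 of 11 higher. The part of these markers in the day 10 changes was not tested. Cdkn2c read -1.77 and -1.62 in the Dazl-GFP and Stella-GFP lines at day 10, against -2.54 and -2.86 at day 0, and rose by 1 (SE 0.22, adjusted p = 0.0282). Cdkn2a read -2.67 and -3.10, against -4.01 and -3.77, and rose by 1 (SE 0.25, adjusted p = 0.0406). Cdkn1b read -0.06 and -0.03, against -0.61 and -1.01, and rose by 0.77 (SE 0.19, adjusted p = 0.0373). In none of the 3 genes did day 10 overlap day 0. With the slide as a block none passed, at 0.85 for Cdkn2c (adjusted p = 0.145), 1 for Cdkn2a (adjusted p = 0.153) and 0.58 for Cdkn1b (adjusted p = 0.122), and on slide 1, which held the Dazl-GFP arrays of both days, they changed by 0.77, 1.34 and 0.55. At day 3 Cdkn2c had -1.54 and -2.07 in the FBS arm and was the only 1 of 42 members called against day 0 (2.38%, against 11.9% of all genes, 6.74% in this direction), with 0.89 (SE 0.22, adjusted p = 0.0434). Over the 12 fits that left out 1 array, Cdkn2c passed here in 2, and with the slide as a block it gave 0.74 (adjusted p = 0.185).

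In the serum-free arm at day 3, Cdkn1b read -0.37 and -0.24, against -1.08 and -0.92 at day 0, and rose by 0.69 (SE 0.19, adjusted p = 0.0489). Its probes disagree in size. A probe printed as 10 spots, matched to Cdkn1b by its accession, rose by 2.16 (SE 0.36, adjusted p = 0.0126) in this comparison and was higher by 2.17 (SE 0.36, adjusted p = 0.00821) than in the FBS arm at day 3, where the single-spot probe that stood for the gene gave 0.28 (SE 0.19, adjusted p = 0.302). In the FBS arm at day 10 the 10-spot probe gave 0.33 (adjusted p = 0.582), so the call of Cdkn1b there rests on 1 probe. The third probe was well above background on 1 array. Cdkn2b moved the other way: it read 0.17 and 0.13 at day 3, against 0.76 and 1.12 at day 0, and fell by 0.79 (SE 0.20, adjusted p = 0.0408).

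**Figure D4:**
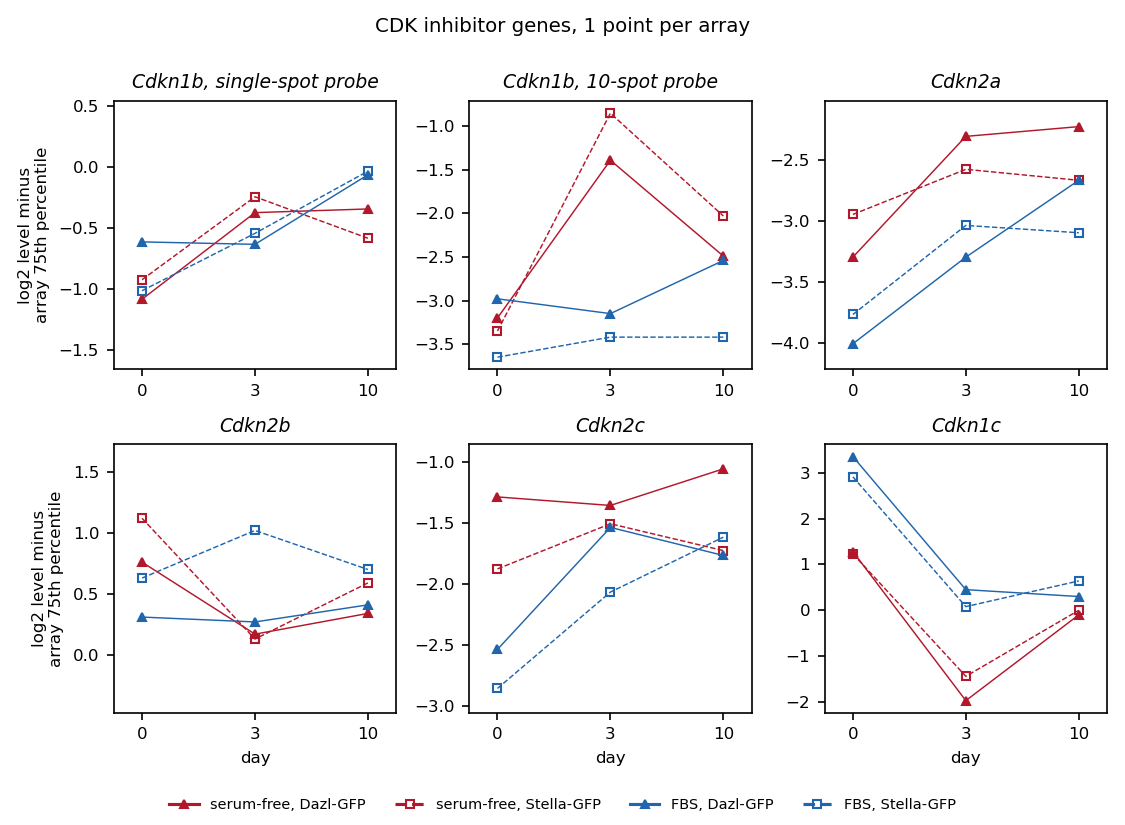
Levels of the CDK inhibitor genes Cdkn1b (2 probes), Cdkn2a, Cdkn2b, Cdkn2c and Cdkn1c (y axes, log2 level minus the array's 75th percentile, each panel with its own scale) at days 0, 3 and 10, 1 point per array, red for the serum-free and blue for the FBS arm, triangles for Dazl-GFP and squares for Stella-GFP. The 10-spot probe of Cdkn1b stands at -1.39 and -0.85 in the serum-free arm at day 3 and at -3.15 and -3.42 in the FBS arm, while the single-spot probe separates the arms by 0.28.

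Among inhibitors outside the 42, Cdkn1c read -1.97 and -1.44 in the serum-free arm at day 3, against 0.45 and 0.08 in the FBS arm at day 3 and 1.28 and 1.23 in the serum-free arm at day 0. Its change against the FBS arm was -1.97 (SE 0.26, adjusted p = 0.00446), and it fell from day 0 in both arms, by 2.96 in the serum-free arm and by 2.86 in the FBS arm at day 3. The arms already differed at day 0, where the change was -1.87 (SE 0.26, adjusted p = 0.0261). At day 10 Cdkn1c read -0.1 and 0 in the serum-free arm and 0.3 and 0.64 in the FBS arm. It was called lower than at day 0 in both arms there too. Cdkn1a, the gene of p21, rose against day 0 in the FBS arm by 1.32 (adjusted p = 0.0224) at day 3 and by 1.57 (adjusted p = 0.011) at day 10, and in the serum-free arm by 1.24 (adjusted p = 0.0437) at day 10, while 0.97 (adjusted p = 0.0513) at serum-free day 3 missed the threshold.

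The pocket proteins bind E2F factors and keep their targets off. Of the 7 pocket protein and E2F genes 2 were higher at day 3 in serum-free than in FBS cells and 5 did not pass, where 8.96% of all genes were higher. Rb1 read 0.81 and 0.93 in the Dazl-GFP and Stella-GFP lines, against -0.05 and 0.40, a change of 0.69 (SE 0.19, adjusted p = 0.0384). Rbl1, which encodes p107, read 0.16 and 0.01, against -0.36 and -0.68, a change of 0.61 (SE 0.16, adjusted p = 0.0364). The groups did not overlap in either gene. Rbl2, which encodes p130, gave 0.89 (SE 0.32, adjusted p = 0.08) and did not pass. From day 0 within the serum-free arm these genes changed by 0.30, 0.18 and 0.29, and none passed. Within slide 2, across lines, Rb1 differed by 0.41 and Rbl1 by 0.84. With the slide as a block Rb1 had 0.39 (adjusted p = 0.392) and Rbl1 0.38 (adjusted p = 0.31), and without the cell line term they had adjusted p = 0.0765 and adjusted p = 0.133.

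Of the E2F genes none was called with its standing probe. E2f1, an activator of replication genes, read 1.11 and 0.95 at serum-free day 3, against 0.25 and 0.42 at day 0, and its change of 0.69 (SE 0.20, adjusted p = 0.0574) missed the threshold, as did 0.66 (SE 0.20, adjusted p = 0.0719) in the FBS arm. E2f2 gave -0.68 (SE 0.29, adjusted p = 0.164) and E2f3 -0.37 (SE 0.24, adjusted p = 0.344) in the serum-free arm. E2f4, a repressor that works with Rbl1 and Rbl2, varied by 1.85 over the arrays and gave -0.83 (SE 0.40, adjusted p = 0.205). Other probes of E2f1 and E2f3 moved by different amounts. A 10-spot probe of E2f1 read -0.01 and -0.02 at serum-free day 3, against -1.27 and -1 at day 0. In the FBS arm it read -0.36 and -0.51, against -0.63 and -1.2. A second E2f3 probe read -1.77 and -1.57 at serum-free day 3, against -0.59 and -0.55 at FBS day 3.

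E2F factors act on replication genes, and genes of G2 and mitosis are known for the CHR element, through which the DREAM and MuvB complexes act, and for CCAAT boxes bound by NF-Y. The 250 bases before the annotated start (RefSeq, GRCm38.p6) are shown for the 4 called members of the replication, G2 and mitosis groups, the members of those groups that passed the test at day 3, to show the elements each carries. Capitals mark, on either strand, TTTNGCGC (E2F), TTTGAA (CHR) and CCAAT. Cdc20 lies at chr4:118437344-118437593, Aurka at chr2:172370571-172370820, Ccnb1 at chr13:100786487-100786736 and Mcm6 at chr1:128359706-128359955, each on the minus strand.
Cdc20: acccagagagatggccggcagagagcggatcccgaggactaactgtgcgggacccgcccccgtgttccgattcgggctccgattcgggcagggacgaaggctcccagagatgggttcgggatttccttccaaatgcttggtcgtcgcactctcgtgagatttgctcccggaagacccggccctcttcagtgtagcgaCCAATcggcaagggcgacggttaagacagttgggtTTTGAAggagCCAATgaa
Aurka: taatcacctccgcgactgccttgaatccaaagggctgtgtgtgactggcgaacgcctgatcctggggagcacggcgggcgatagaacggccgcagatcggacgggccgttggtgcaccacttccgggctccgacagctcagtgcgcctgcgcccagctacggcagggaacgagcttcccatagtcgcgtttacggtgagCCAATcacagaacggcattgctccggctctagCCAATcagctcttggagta
Ccnb1: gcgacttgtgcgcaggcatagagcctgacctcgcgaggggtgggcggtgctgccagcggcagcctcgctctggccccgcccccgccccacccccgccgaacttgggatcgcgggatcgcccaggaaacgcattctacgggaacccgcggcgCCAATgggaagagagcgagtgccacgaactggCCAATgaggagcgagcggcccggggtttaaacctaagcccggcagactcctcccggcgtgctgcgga
Mcm6: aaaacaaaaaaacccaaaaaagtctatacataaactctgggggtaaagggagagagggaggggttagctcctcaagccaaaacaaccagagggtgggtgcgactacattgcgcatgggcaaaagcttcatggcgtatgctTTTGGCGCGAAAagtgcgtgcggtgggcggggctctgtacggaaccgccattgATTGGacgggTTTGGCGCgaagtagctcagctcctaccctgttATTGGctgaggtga

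Each of these 4 windows held 2 CCAAT matches, those of Mcm6 as the reverse complement ATTGG. Cdc20 held 1 CHR match, and Mcm6 held 3 E2F matches, 2 of them overlapping on opposite strands. Of the 42 members 33 were in the promoter table. A CCAAT match stood in 22 of the 33 (66.7%), against 37.5% of the 27025 genes in the table, a CHR match in 11 (33.3%, against 18.3%) and an E2F match in 6 (18.2%, against 1.31%). All 4 mitotic kinase and checkpoint genes in the table and all 7 of S phase to mitotic entry held CCAAT, as did 6 of 8 replication genes. An E2F match stood in 2 of the 8 replication genes and in 2 of the 7 of S phase to mitotic entry. A CHR match stood in 5 of those 7, in 1 of the 4 and in 1 of the 8. It also stood in 3 of 5 pocket protein and E2F genes, so the elements did not follow the groups strictly. These matches describe the letters and are not shown to be sites. Members that passed in no comparison held them too, such as CCAAT in Plk1 and both CCAAT and CHR in Cdk1 and Mki67.

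Origin licensing loads the Mcm2 to Mcm7 helicase onto DNA with the help of Cdc6 and Cdt1, and Pcna is the sliding clamp of the polymerases. Of these 9 genes 1, Mcm6, was lower in the serum-free arm at day 3 than in the FBS arm (11.1%, against 13.5% of all genes lower). It read 6.84 and 6.74, against 7.52 and 7.39, which do not overlap, a change of -0.67 (SE 0.19, adjusted p = 0.0432). Its change from day 0 within the serum-free arm, -0.28 (SE 0.19, adjusted p = 0.364), did not pass. Mcm5 gave -0.55 (SE 0.18, adjusted p = 0.06) and Cdc6 -0.59 (SE 0.19, adjusted p = 0.0612) against the FBS arm, and the other 6 gave -0.48 to 0.01. A second Cdc6 probe did not share its change, with 0.46 and 0.04 at serum-free day 3, against 0.43 and 0.09 in the FBS arm. The median of the 9 was -0.43 there, against -0.21 over all genes, and -0.28 against -0.04 from day 0. Mcm2 ranged over the 12 arrays from 4.04 to 4.49, Mcm4 from 5.68 to 6.19 and Pcna from 5.95 to 6.76, and none of these passed in any comparison.

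Cyclins A and B with Cdk1 carry cells from S phase into mitosis. Of 9 genes here 1 was lower in the serum-free arm at day 3 in each comparison (11.1%, against 13.5% of all genes lower than in the FBS arm and 7.89% lower than at day 0). Ccnb1, the gene of cyclin B1, read 3.11 and 3.09, against 3.85 and 3.79 in the FBS arm and 3.70 and 3.93 at day 0. The groups did not overlap, and the change was -0.72 in both comparisons, with SE 0.15 and adjusted p = 0.016 against the FBS arm and SE 0.15 and adjusted p = 0.0233 against day 0. Its other probes passed against day 0, each with -0.71 (adjusted p = 0.0428 and adjusted p = 0.0365), but gave -0.19 (adjusted p = 0.463) and -0.46 (adjusted p = 0.0889) against the FBS arm. Ccna2 and Cdk1 gave -0.52 (SE 0.18, adjusted p = 0.099) and -0.48 (SE 0.18, adjusted p = 0.114) from day 0. Ccnb2 and Ccnf, the genes of cyclin B2 and cyclin F, and Cdc25a, which activates CDKs, passed in no comparison, nor did Wee1, whose product inhibits Cdk1. Mki67, which encodes the proliferation antigen Ki-67, stayed between 4.48 and 4.95 on all 12 arrays with its standing probe. The arm difference of that probe at day 3 was -0.01 (SE 0.15, adjusted p = 0.969). A second Mki67 probe read 2.3 and 2.31 at serum-free day 3, against 1.78 and 1.71 at FBS day 3. Top2a, the topoisomerase that untangles replicated DNA, stayed between 2.07 and 2.83 with its standing probe. A second Top2a probe read 0.06 and 0.3 at serum-free day 3, against -1.21 and -1.88 at FBS day 3. In the remaining Top2a probe the arms overlapped at day 3, at -3.69 and -4.16 against -4.01 and -4.13.

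Of the 5 genes of mitotic kinases and the checkpoint, 2 were lower in each day 3 comparison, where 13.5% of all genes were lower than in the FBS arm and 7.89% lower than at day 0. Aurka, the gene of the spindle kinase Aurora A, read 5.26 and 5.13 in the serum-free arm at day 3, against 6.04 and 6 in the FBS arm and 5.89 and 6.07 at day 0, with no overlap. The change was -0.83 (SE 0.15, adjusted p = 0.012) against the FBS arm and -0.79 (SE 0.15, adjusted p = 0.0197) against day 0. Cdc20, the activator of the anaphase-promoting complex, read 5.68 and 5.74, against 6.32 and 6.38 in the FBS arm and 6.43 and 6.71 at day 0, also with no overlap. Its change was -0.64 (SE 0.16, adjusted p = 0.0273) against the FBS arm and -0.86 (SE 0.16, adjusted p = 0.016) against day 0. Plk1, Aurkb and Bub1 changed from day 0 by -0.46 (SE 0.17, adjusted p = 0.121), -0.47 (SE 0.18, adjusted p = 0.122) and -0.29 (SE 0.19, adjusted p = 0.357).

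**Figure D5:**
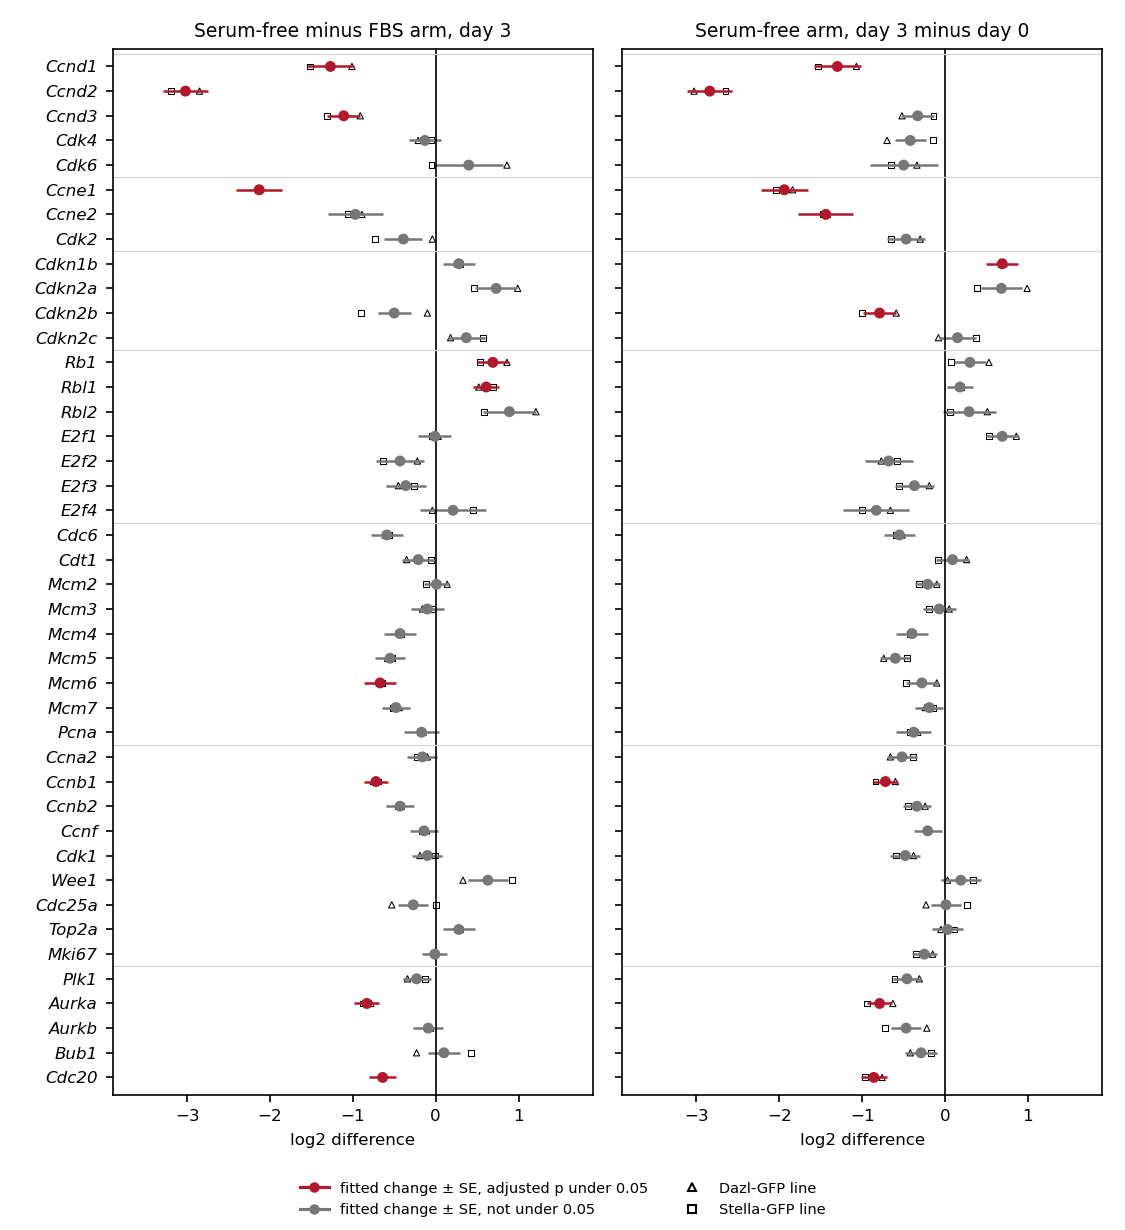
Log2 change of each of the 42 genes (rows, by role) in the serum-free arm at day 3 against the FBS arm at day 3 (left) and against serum-free day 0 (right), as the fitted value with its SE, red where the adjusted p was under 0.05, with open symbols for each line. Ccnd2 lies furthest left in both panels, at -3.02 and -2.84, and most replication and mitosis genes lie between 0 and -1.

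The size of these smaller changes depends on the scaling between arrays. With quantile normalization the median change over all genes between the arms at day 3 was -0.08, against -0.21 with the 75th percentile. It left 6 members called in place of 10, and 2322 of 4555 called genes higher in place of 1900 of 4771. Aurka then gave -0.49 (adjusted p = 0.0716), Ccnb1 -0.49 (adjusted p = 0.0528), Mcm6 -0.35 (adjusted p = 0.129) and Cdc20 -0.27 (adjusted p = 0.214), with no change of direction. From day 0 within the serum-free arm, the changes of Aurka (-0.63, adjusted p = 0.0443), Ccnb1 (-0.57, adjusted p = 0.0428) and Cdc20 (-0.73, adjusted p = 0.0215) passed with quantile normalization too. With the slide as a block none of the 4 passed between the arms at day 3, at -0.94 for Aurka (adjusted p = 0.0739), -0.78 for Ccnb1 (adjusted p = 0.0983), -0.71 for Cdc20 (adjusted p = 0.133) and -0.58 for Mcm6 (adjusted p = 0.271). Within slide 2, across lines, they differed at day 3 by -0.74, -0.68, -0.71 and -0.55 in the same order of genes. From day 0 within the serum-free arm Aurka, Ccnb1 and Cdc20 kept their calls with the slide as a block.

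At day 0 and at day 10 no member passed between the arms (0 of 42), against 1.83% and 5.56% of all genes, with an unadjusted p under 0.05 for 3 and 5 members. At day 0 Cdkn2c came nearest, with -1.29 and -1.88 in the serum-free arm against -2.54 and -2.86 in the FBS arm and a change of 1.11 (SE 0.22, adjusted p = 0.0581). A second Cdkn2c probe gave 1.01 (SE 0.19, adjusted p = 0.0492). The serum-free arm at day 10 against day 0 called 0 of 42 (6 unadjusted), against 5.2% of all genes. There Ccnd2 stood at -0.78 (SE 0.27, adjusted p = 0.136) and Ccne1 at -0.96 (SE 0.28, adjusted p = 0.0919), against -2.84 and -1.94 at day 3. The difference between arms in the day 10 response called 0 of 42 (2 unadjusted), against 0.066% of all genes.

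In the FBS arm Ccnd2 and Ccne1 fell by day 10 and did not pass at day 3. At day 3 Ccnd2 and Ccne1 stood at -0.16 (SE 0.27, adjusted p = 0.744) and 0.05 (SE 0.28, adjusted p = 0.925) against day 0. At day 10 Ccnd2 read -0.08 and 1.2 in Dazl-GFP and Stella-GFP cells, against 1.73 and 2.68 at day 0, and fell by 1.64 (SE 0.27, adjusted p = 0.0104). Ccne1 read 4.83 and 5.67, against 6.01 and 6.78, and fell by 1.14 (SE 0.28, adjusted p = 0.0359), and neither gene's groups overlapped. Ccnd2 read lower in Dazl-GFP than in Stella-GFP cells at every day in both arms, and the lines stood further apart in the FBS arm. The 19 fibroblast markers summed to 45.7 to 66.9 at FBS day 10, against 47.5 to 53.7 at day 0, with 1 higher and 2 lower, and the 13 primitive endoderm markers to 5.2 to 5.59, against 13.2 to 14 at day 0. The Dazl-GFP arrays of this comparison lay on 1 slide, where Ccnd2 changed by -1.81 and Ccne1 by -1.18, and with the slide as a block Ccnd2 (-1.90, adjusted p = 0.0268) alone of the 5 members kept its call. Over the 12 fits that left out 1 array, Ccnd2 passed in 10 and Ccne1 in 3. Without the day 0 Stella-GFP array 0 members were called, without either day 10 array 1, without the day 0 Dazl-GFP array 3, 2 without any 1 array of day 3 or of serum-free day 0, and 5 if a serum-free day 10 array was left out.

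The lines did not differ in any member by the test: 0 of 42 for Dazl-GFP against Stella-GFP over all arrays (8 unadjusted), against 2.71% of all genes, and 0 of 42 for the difference of that contrast between arms (5 unadjusted), against 0% of all genes. The lowest adjusted p between lines was that of Ccnd2, with -0.72 (SE 0.16, adjusted p = 0.0609). Cdk6 also gave -0.72 (SE 0.23, adjusted p = 0.175) with its standing probe. Its other probes did not share this. Both read higher in Dazl-GFP at every day of the serum-free arm, and their direction varied by day in the FBS arm. In these data a missed threshold does not show that the lines were alike.

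Other genes of the pathway gave counts of the same kind. Of 19 other G1 regulators 1 was lower in the serum-free arm at day 3 than in the FBS arm (5.26%, against 13.5% of all genes lower), and from day 0 within that arm 2 fell, Cdkn1c and Myc (10.5%, against 7.89% of all genes). Myc, which drives growth and cyclin genes, fell by 4.14 (SE 0.68, adjusted p = 0.0116) to serum-free day 3 and by 3.47 (SE 0.68, adjusted p = 0.0178) to FBS day 10. In the FBS arm Myc read -1.8 in Dazl-GFP and 0.58 in Stella-GFP cells at day 10, against 2.89 and 2.84 at day 0, and without the day 10 Dazl-GFP array the change was -2.17 (adjusted p = 0.0449). Of 14 other E2F and DREAM genes 2 fell and 1 rose in the serum-free arm by day 3 (21.4%, against 13.8% of all genes). E2f8, an atypical E2F repressor, fell by 2 (SE 0.26, adjusted p = 0.00562), and Tfdp1, the partner of E2F factors, by 0.76 (SE 0.20, adjusted p = 0.0441), while E2f5 rose by 0.83 (SE 0.19, adjusted p = 0.0315). A second probe of E2f5 gave -0.64 (adjusted p = 0.625). In the FBS arm at day 10 against day 0, E2f8 was the 1 gene of the list called. It fell by 1.24 (7.14% of the list, against 5.34% of all genes lower), and a second E2f8 probe gave 0.59 (adjusted p = 0.588). Between arms at day 3, 1 of the 14 was called, Mybl1, higher in the serum-free arm (7.14%, against 8.96% of all genes higher). The limma test was of its fitted change, 2.01 (adjusted p = 0.00454). The call held in 19 of 21 settings, with a lowest change of 0.01 and a highest adjusted p of 0.995. As a bounded fold, which was not itself tested, Mybl1 was at least 2.1-fold higher. It was not well above background on the FBS day 3 arrays, and the fold is taken against the lowest signal well above background there.

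Of 37 other replication genes 6 were lower in the serum-free arm at day 3 than in the FBS arm (16.2%, against 13.5% of all genes lower), with a median of -0.20, against -0.21 over all genes. Tk1, the thymidine kinase gene, had a change of -0.93 (SE 0.21, adjusted p = 0.0202) and Mcm10 of -0.78 (SE 0.18, adjusted p = 0.0237). From day 0 within the serum-free arm Tk1 alone fell, by 0.85 (SE 0.21, adjusted p = 0.0358), 2.7% of the list against 7.89% of all genes. Rfc5, a clamp loader subunit, gave 0.73 (SE 0.15, adjusted p = 0.0398) at day 10, with the serum-free arm higher. It was the 1 gene of the list called there (2.7%, against 5.56% of all genes). Prim2, a subunit of primase, was the 1 gene of the list to differ between lines (2.7%, against 2.71% of all genes). It was higher in Dazl-GFP by 2.51 (SE 0.18, adjusted p = 0.0017).

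Of 37 tested other mitosis genes 4 were lower and 1 higher at day 3 between the arms (13.5% called, against 22.5% of all genes in either direction), among them Birc5, the survivin gene, with -1.05 (SE 0.30, adjusted p = 0.0439) and Fzr1, a second activator of the anaphase-promoting complex, with -0.85 (SE 0.18, adjusted p = 0.0188). Ndc80, a kinetochore gene, was higher by 0.76 (SE 0.16, adjusted p = 0.0169). From day 0 to day 3 in the serum-free arm 6 of 37 fell (16.2%, against 7.89% of all genes) and the median was -0.30, against -0.04 over all genes, with Melk, a mitotic kinase gene, down by 0.83 (SE 0.18, adjusted p = 0.0263) and Smc2, of condensin, by 0.83 (SE 0.20, adjusted p = 0.0376). The other probes of Smc2 gave 0.66 (adjusted p = 0.151) and 0.81 (adjusted p = 0.0932). In the FBS arm Ttk, a checkpoint kinase gene, fell by 0.71 (SE 0.18, adjusted p = 0.0457) by day 3. There Zwint, of the kinetochore, rose by 0.87 (SE 0.22, adjusted p = 0.0384) by day 10 (0.57 without the day 0 Dazl-GFP array). In the serum-free arm Pttg1, the securin gene, fell by 0.90 (SE 0.20, adjusted p = 0.0478) by day 10. Each was the 1 gene of the list called in its comparison (2.7%), where 11.9%, 13% and 5.2% of all genes were called.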

How the data were processed

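The authors deposited 1 Agilent Feature Extraction 9.1.3.1 file per array. Per the file headers its processed signal is an intensity after local background subtraction and detrending. The authors also deposited a value matrix of ratios, each spot's background-subtracted intensity over the median of its array, as the values show; it served as an alternative with a floor of 0.1 set here (40714 of 45018 rows matched a spot).

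From the deposited intensities, outlier spots were left out, log2 signals were set to the array's 75th percentile, spots of a probe averaged, and each gene was represented by its probe of highest mean level. Of 41174 probes 22951 were named through RefSeq accessions, the rest by the file's names. Genes entered the fit if 2 or more arrays showed them well above background. limma 3.58.1 (R 4.3.3, data.table, version 1.17.8) fitted 6 groups plus the cell line to all 12 arrays (5 residual and 2.53 prior degrees of freedom; 4 residual for line by arm), with eBayes. The labels' replicate numbers are the 2 lines, which pairs the arrays: line differences correlated across genes at -0.0493 to 0.572 over 15 pairs of groups (median 0.156, above 0.1 in 13).

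Alternatives were quantile normalization, normexp (offset 50) as read and with local backgrounds over 10 times the array median replaced, the authors' table, no filter, a filter requiring all 12 arrays above background, a fit of every probe, no cell line term, the slide as a block and leaving out each array. The fit was tested on simulated data. Members, lists and markers were chosen with earlier results of these data known. All 42 members are accounted for; called members are named with values, and of other lists up to 2 highest and 2 lowest called genes per comparison, with Cdkn1a and Cdkn1c always. Promoter motifs were searched in RefSeq sequences of GRCm38.p6; 9 members (Ccnd1, Ccnd2, Ccne2, Rb1, E2f4, Mcm4, Ccna2, Wee1 and Aurkb) are not in that table. Figures used matplotlib.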

Additional observations from a re-analysis of the deposited data

Results flagged for a closer look

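The change of Ccnd2 from day 0 to day 3 differed between the arms by a test of the difference itself, by -2.68 (SE 0.39, adjusted p = 0.0348, limma). It was -2.84 in the serum-free arm and -0.16 in the FBS arm, with the same sign of the difference in both lines. Its other probes gave -1.94 (adjusted p = 0.0378) and -2.04 (adjusted p = 0.0347). The adjusted p was 0.0927 with the slide as a block (-2.42), 0.118 without the cell line term and 0.0514 with no filter on dim genes.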

How the results depend on the processing

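The call of Ccnd2 at day 3 kept its direction and passed in all 23 settings, against the FBS arm (-3.19 to -2.71) and from day 0 (-3.12 to -2.55). Of the 26 calls of members, 26 held with repaired normexp and 26 with the authors' table, 22 with quantile normalization, 17 without the cell line term (no replicate block), 16 with no filter, 9 with the slide as a block and 2 with normexp as read, where 21 missed the threshold and 3 reversed.

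Counts of members called moved as follows, where settings not named for a count are those that moved it less or not at all. Those settings gave 7 to 14 members between arms at day 3 and 7 to 13 for serum-free day 3 against day 0. For FBS day 10, 7 were called with repaired normexp and 6 with quantile normalization or genes above background on all arrays. Between arms at day 0 and at day 10 the count was 0, or 1 with repaired normexp, the authors' table or genes above background on all 12 arrays, and at day 0 also 1 with quantile normalization or all probes separately. Between arms at day 3 it was 10, or 6 with quantile normalization, 1 with normexp as read and 1 with the slide as a block, and 2 to 13 leaving out an array. For serum-free day 3 against day 0 it was 9, or 1 with normexp as read, and 1 to 11 leaving out an array. For serum-free day 10 it was 0, or 1 with repaired normexp. For FBS day 3 it was 1, or 2 with quantile normalization or genes above background on all arrays, 7 with repaired normexp and 0 with normexp as read, no filter, no replicate block or the slide as a block, and 0 to 1 leaving out an array. For FBS day 10 it was 5, or 0 with normexp as read, 2 with no filter or no replicate block, 1 with the slide as a block, and 0 to 5 leaving out an array. For the day 3 response it was 1, or 8 with repaired normexp, 3 with the authors' table, 4 with genes above background on all arrays, 2 with all probes and 0 with normexp as read, no filter, no replicate block or the slide as a block, and 0 to 4 leaving out an array. Between lines it was 0, or 1 with repaired normexp or genes above background on all arrays. The cause was not tested.

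Normexp as read turned Cdkn2c in the FBS arm to -0.07 at day 3 and -0.13 at day 10, and Cdkn2a to -0.56 at day 10. Other probes turned Cdca8 between arms at day 3 to 0.63 and 1.21, Smc2 in the serum-free arm at day 3 to 0.66 and 0.81, E2f5 there to -0.64 and E2f8 in the FBS arm at day 10 to 0.59.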
